A study of Mus musculus with 4 samples.

Results

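Interferon-stimulated genes are the genes that a cell switches on when it senses interferon, and 36 of them were followed here in fat taken from beneath the skin (subcutaneous white adipose tissue). They were chosen by name from a list of well-known members; the rule uses no measured value, but the list was drawn up with earlier results of these data known. All 36 were found among the 51912 genes of the deposited table. The tissue came from 8-week-old C57BL/6 mice given either BML-260, which is described as inhibiting the phosphatase DUSP22, or DMSO, the vehicle. RNA sequencing gave 4 libraries, and within each treatment the pair carries the letters A and B. The series text speaks of 8 mice, 4 per treatment, without saying which mice went into which library. The p-values therefore measure the spread among these libraries, which may be partly technical. Each library held between 19999836 and 23726781 expected counts.

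Interferons act through surface receptors that switch on the Janus kinases and the STAT transcription factors. Type I interferons (alpha and beta) signal mainly to a DNA element called the interferon-stimulated response element, bound by a complex that holds IRF9, while interferon gamma signals mainly to another, the gamma-activated site. The first route is known for antiviral proteins such as the IFIT, OAS and MX families, the second for large GTPases that attack the membranes around pathogens inside cells, although many genes answer to both. The 36 genes were divided by these roles into 4 regulators, 22 type I antiviral genes (4 sensors of nucleic acid and 18 effectors) and 10 GTPases of the interferon gamma response. In fat, macrophages, endothelial cells, lymphocytes and adipocytes can all express them, and in bulk RNA fewer cells of a type and less RNA per cell cannot be told apart.

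The promoters of some members hold the core letters of these elements. RefSeq promoter sequence (build GRCm38.p6) was matched by symbol for 26 of the 36 genes, and the 250 bases before each start were searched on both strands for the word GAAA repeated after any 2 bases, the core of the interferon-stimulated response element, and for TTCNNNGAA, the core of the gamma-activated site. The following stretches all lie upstream of the RefSeq start and are written 5′ to 3′ on the strand of the gene. They are shown because they hold either or both of these cores in genes whose values are given later. Capitals mark the matched letters.
Isg15 (chr4:156200860-156200911, minus strand): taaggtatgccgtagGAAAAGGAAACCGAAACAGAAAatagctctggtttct
Ifit1 (chr19:34640770-34640828, plus strand): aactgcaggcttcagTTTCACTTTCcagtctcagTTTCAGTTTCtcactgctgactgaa
Oas1a (chr5:120907526-120907560, minus strand): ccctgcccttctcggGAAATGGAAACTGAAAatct
Rsad2 (chr12:26456548-26456587, minus strand): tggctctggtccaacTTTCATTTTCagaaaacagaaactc
Igtp (chr11:58199507-58199546, plus strand): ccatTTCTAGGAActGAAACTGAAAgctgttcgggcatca
Irgm2 (chr11:58214898-58214937, plus strand): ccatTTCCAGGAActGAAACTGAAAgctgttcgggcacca
Irf1 (chr11:53769909-53769947, plus strand): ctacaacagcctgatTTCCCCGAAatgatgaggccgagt

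The response-element letters stood in 14 of the 26 matched members, against 2.98% of all 32851 promoters of the same length. They stood in 7 of 15 matched antiviral genes and in 7 of 7 matched GTPases, and in 0 of the 4 regulators. The gamma-site letters stood in 9 of the 26, against 7.02% of all promoters: in 3 of the 15 antiviral genes, 4 of the 7 GTPases and 2 of the 4 regulators, Irf1 and Irf8. Isg15 holds 3 overlapping copies of the first motif and Ifit1 holds 2 separate ones. Igtp and Irgm2, neighbours on chromosome 11, carry both motifs side by side in stretches that are identical in 38 of 40 bases. The 26 genes had 31 promoter entries, and a gene was counted where any of its entries held the letters. A match of letters is a description of the sequence and does not show that a factor binds there.

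No difference between BML-260 and vehicle passed the test in any of the 36 genes. In edgeR's quasi-likelihood test, adjusted over all 15643 genes tested with the Benjamini-Hochberg method, 0 members passed 0.05 (0.00639% of all tested genes did), and the smallest adjusted p among them was 0.513, for Gbp2. Before adjustment, 0 members were higher and 0 lower at p under 0.05, against 7.45% of tested genes higher and 3.61% lower (1165 and 564 genes; with plain library totals 926 and 893). DESeq2 (391 genes called, 2.53% of the 15463 with an adjusted p) and limma-voom also called 0 members, with 0 below 0.05 before adjustment. The authors' deposited table has 357 genes under an adjusted p of 0.05, which is 0.688% of all its 51912 genes, tested or not. The smallest adjusted p of a member in that deposited table was 0.7549. The median log2 fold change of the members was -0.005, with 17 above zero and 19 below, beside 0.02 over all tested genes.

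The fit bounded most of these differences. Members had between 170 and 4733 counts per library, and all 36 passed the filter on low counts. For 33 of the 36 the 95% confidence interval of the fold change lay within 2-fold in either direction; this held for 64.4% of all tested genes and for 87.6% of those in the members' range of abundance. The 3 whose interval reached past 2-fold were Irf8, Oas3 and Epsti1, and in each of them the BML-260 libraries stood more than 2-fold apart. Those libraries also stood 2.13-fold apart in Mx1, whose interval stayed within 2-fold.

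**Figure D1:**
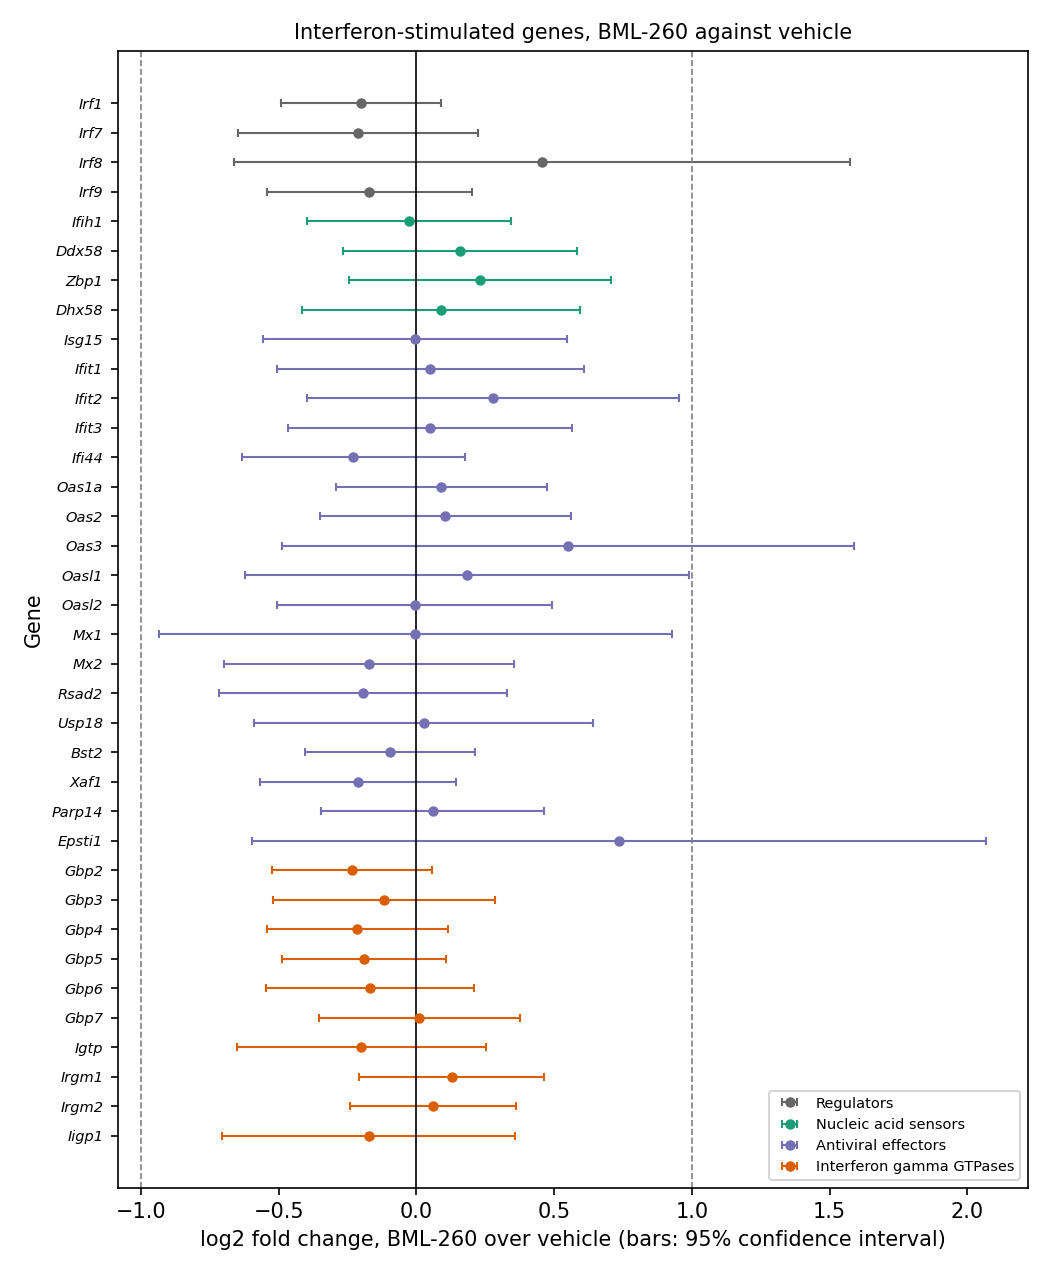
Log2 fold change of each of the 36 genes, BML-260 over vehicle, from the edgeR fit, with its 95% confidence interval (2 libraries per treatment); dashed lines mark 2-fold. Every interval includes zero, and those of Irf8, Oas3 and Epsti1 alone reach past 2-fold.

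The 2 treatment groups did not overlap in 8 of the 36 genes, lower with BML-260 in all 8 and higher in 0, where 44.3% of all tested genes did not overlap (22.9% higher, 21.5% lower). The 8 were Irf1 among the regulators, the effectors Ifi44, Bst2 and Xaf1, and the GTPases Gbp2, Gbp4, Gbp5 and Gbp6. Counted in either direction, their share of the members is below the 44.3% of all tested genes. Counted as lower alone, it is near the 21.5%, and 0 members were higher beside 22.9%.

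The regulators are interferon regulatory factors, transcription factors that start or amplify the response. Irf1 (chromosome 11, 53770014 to 53778374, plus strand), a primary target of interferon gamma, lay at 62.2 and 68.5 CPM (counts scaled to a common library size with edgeR's TMM factors) in vehicle A and B and at 56.0 and 57.7 in BML-260 A and B; later pairs of values keep this order, A before B. Both BML-260 values were below both vehicle values, with a log2 fold change of -0.20 (95% interval -0.49 to 0.09). Irf7, the factor that amplifies type I interferon production, lay at 225 and 196 CPM in the vehicle pair and 202 and 161 in the BML-260 pair. The groups overlapped, and its log2 fold change was -0.21 (interval -0.65 to 0.22). Irf9, the DNA-binding part of the type I STAT complex, had -0.17, and its exons overlap those of Rnf31 on the same strand, so its counts are uncertain. Irf8, which myeloid cells and B cells need for their development, was the most variable regulator, at 18.4 and 30.8 CPM in the vehicle pair and 46.9 and 20.6 in the BML-260 pair. Its highest value was in BML-260 A and its lowest in vehicle A, with BML-260 B between the 2 vehicle libraries; the log2 fold change was 0.46 (interval -0.66 to 1.57).

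The sensors detect viral nucleic acid in the cytosol. Ifih1 (MDA5) and Ddx58 (RIG-I) bind viral RNA and signal through the adaptor MAVS, Dhx58 (LGP2) tunes both, and Zbp1 binds nucleic acid in the Z form and can start necroptosis. Ifih1 was the steadiest, at 57.0 and 46.1 CPM in the vehicle pair and 52.4 and 48.8 in the BML-260 pair, a log2 fold change of -0.03 (interval -0.40 to 0.34). Ddx58 lay at 67.6 and 59.1 in the vehicle pair and 79.8 and 61.5 in the BML-260 pair (0.16, interval -0.27 to 0.58). Both groups overlapped in each of these genes. Zbp1 lay at 39.6 and 40.8 in the vehicle pair and at 55.1 and 39.2 in the BML-260 pair, so BML-260 A alone stood above the other libraries, and Dhx58 had the same order at the top, with 37.2 CPM in BML-260 A against 26.1 to 31.4 in the rest. Their log2 fold changes were 0.23 and 0.09, with edgeR adjusted p of 0.68 and 0.892.

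The effectors act on viral RNA, protein synthesis, membranes and ubiquitin-like tagging. The IFIT proteins bind foreign RNA and block its translation, and their genes lie together on chromosome 19 between 34550694 and 34650009. Ifit1 lay at 48.1 and 32.8 CPM in the vehicle pair and 46.1 and 37.8 in the BML-260 pair, and Ifit3 at 145 and 105 in the vehicle pair and 142 and 117 in the BML-260 pair. In both genes each A library was above both B libraries, so the library letter separated the values and the treatment did not. Their log2 fold changes were both 0.05, with intervals of -0.50 to 0.61 for Ifit1 and -0.47 to 0.57 for Ifit3. Ifit3 has a near-identical neighbour, Ifit3b, and decimal counts in all 4 libraries, so reads may be split between the 2 genes. Ifit2 lay at 29.7 and 26.6 in the vehicle pair and at 43.0 and 25.2 in the BML-260 pair, again with BML-260 A alone at the top.

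Isg15, a ubiquitin-like protein that is joined to other proteins, and Usp18, the protease that removes it and also damps the type I receptor, had the A libraries on top as well. Isg15 (chromosome 4, 156199424 to 156200818, minus strand) lay at 31.2 and 24.2 CPM in the vehicle pair and 32.1 and 23.1 in the BML-260 pair, a log2 fold change of -0.006 (interval -0.56 to 0.55). Usp18 lay at 37.3 and 27.2 in the vehicle pair and 38.9 and 26.8 in the BML-260 pair (0.03, interval -0.59 to 0.64). In each gene the 2 A libraries stood together above the 2 B libraries. Rsad2 (viperin), which makes a nucleotide that stops viral polymerases, lay at 48.9 and 40.4 in the vehicle pair and 45.7 and 32.3 in the BML-260 pair, with a log2 fold change of -0.195 (interval -0.72 to 0.33).

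The oligoadenylate synthetase family turns double-stranded RNA into a signal for RNase L; its members here form 2 groups on chromosome 5, Oas1a, Oas2 and Oas3 in one and Oasl1 and Oasl2 in the other. Oas1a lay at 40.1 and 41.5 CPM in the vehicle pair and 48.4 and 38.4 in the BML-260 pair, Oas2 at 77.6 and 89.2 in the vehicle pair and 103 and 76.6 in the BML-260 pair. Oas3 lay at 10.2 and 14.9 in the vehicle pair and 25.3 and 11.5 in the BML-260 pair, a log2 fold change of 0.55 (interval -0.49 to 1.59). In all 3 genes BML-260 A was the highest library while BML-260 B lay lowest or between the vehicle values. Oas1a and Oas2 had decimal counts in all 4 libraries, and Oas1a has close relatives beside it, so reads may be shared. In the authors' deposited table the log2 fold change of Oas2 is -0.08, of opposite sign to the 0.105 of the edgeR fit, whose interval (-0.35 to 0.56) holds both. Oasl1, which restrains Irf7 translation, and Oasl2 had log2 fold changes of 0.18 and -0.007, both with the highest value in BML-260 A and the lowest in BML-260 B.

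The MX proteins are dynamin-like GTPases that block viral replication. Mx1 lay at 12.2 and 12.1 CPM in the vehicle pair and at 16.5 and 7.74 in the BML-260 pair, so the vehicle libraries were close together and the BML-260 libraries fell on either side of them. Its log2 fold change was -0.004 (interval -0.93 to 0.93). Mx2, annotated as a polymorphic pseudogene, lay between 7.84 and 9.97 CPM in the 4 libraries. Per length, Oas3, Mx1 and Mx2 were the 3 lowest members, with mean FPKM over the libraries of 3.87, 4.81 and 5.97.

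Bst2 (tetherin), which holds budding virus at the cell surface, had the highest level of the list per length, from 226 to 261 FPKM. It lay at 118.3 and 129 CPM in the vehicle pair and 117.6 and 114 in the BML-260 pair; the groups did not overlap by a narrow margin, and the log2 fold change was -0.10 (interval -0.40 to 0.21). The next members per length were Irf7 (102 to 146 FPKM) and Ifit3 (71.9 to 103), whose ranges overlapped each other but not that of Bst2. Xaf1, which favours apoptosis, and Ifi44 had log2 fold changes of -0.21 and -0.23, and Parp14, an ADP-ribosyltransferase, 0.06. Epsti1, an interferon-induced gene, was the most uneven member. It lay at 15.8 and 18.5 CPM in the vehicle pair and at 43.6 in BML-260 A. BML-260 B, at 13.6, was below both vehicle libraries. The log2 fold change of Epsti1, 0.74, had an interval of -0.60 to 2.07 (edgeR adjusted p = 0.637).

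**Figure D2:**
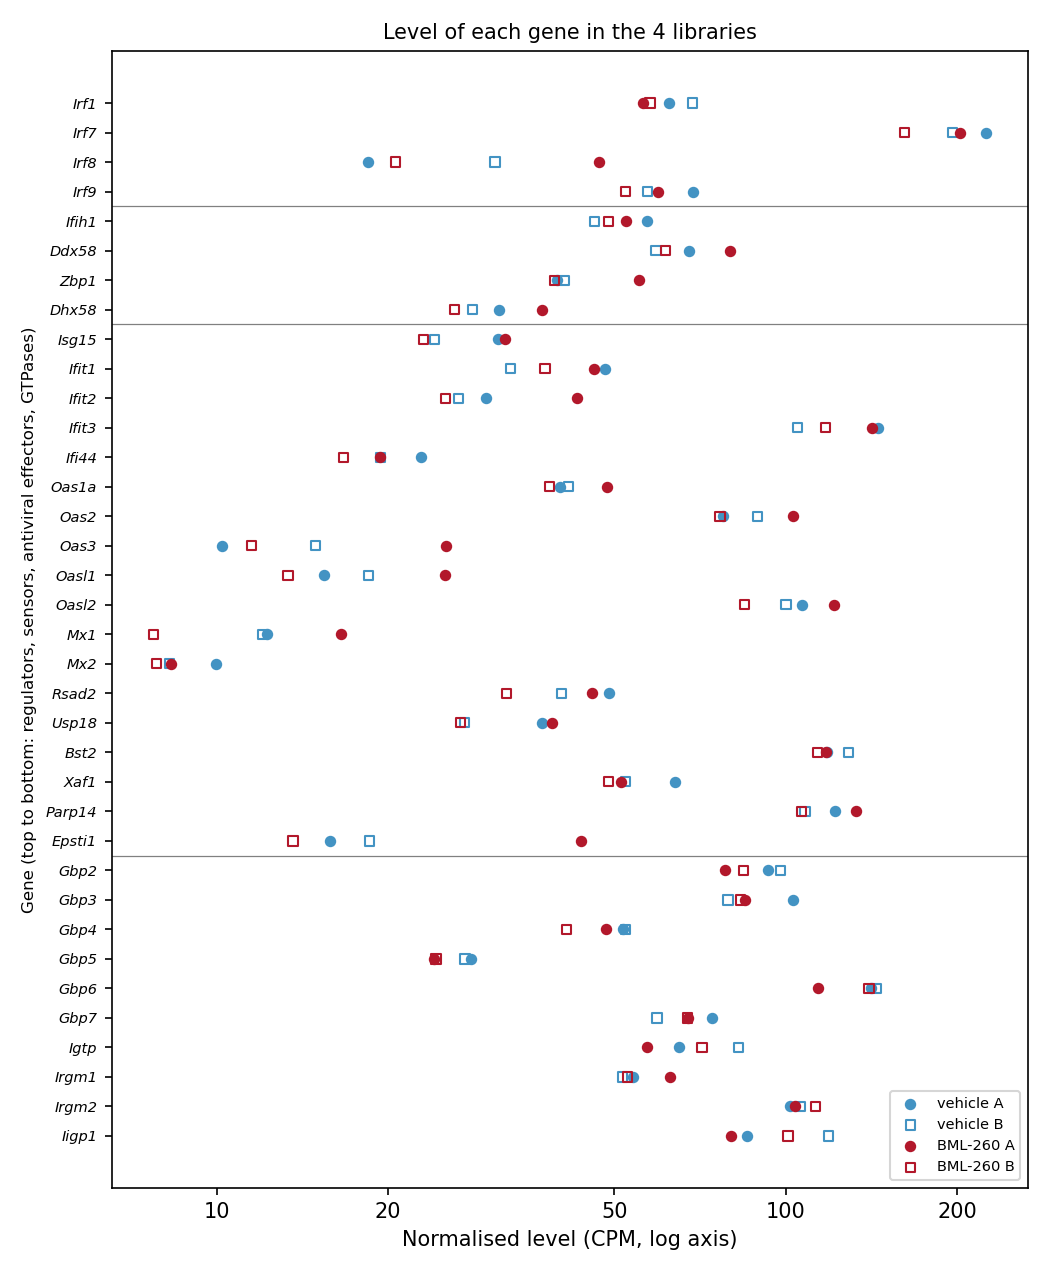
Normalised level (CPM, log axis) of each gene in vehicle A and B (blue) and BML-260 A and B (red); filled circles are A libraries and open squares B libraries. Epsti1, Oas3 and Irf8 stand highest in BML-260 A (43.6, 25.3 and 46.9 CPM). In the lowest block, the GTPases, some genes lie close together (Gbp5, 24.1 to 27.96 CPM) and others further apart (Iigp1, 80.1 to 119 CPM).

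The GTPases of the interferon gamma response fall into the guanylate-binding proteins (GBP), which coat and break pathogen vacuoles and promote inflammasome activation, and the immunity-related GTPases (IRG), of which Irgm1, Irgm2 and Igtp (Irgm3) restrain the others and protect the cell's own membranes. Gbp2, Gbp3, Gbp5 and Gbp7 lie together on chromosome 3 between 142493978 and 142638008, and Gbp4 and Gbp6 on chromosome 5. The 10 genes had a median log2 fold change of -0.17, from -0.23 to 0.13, with 3 above zero and 7 below. All 10 intervals lay within 2-fold in either direction.

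Gbp2 lay at 93.1 and 98.0 CPM in the vehicle pair and 78.2 and 84.2 in the BML-260 pair, so both BML-260 libraries were lower. Its log2 fold change was -0.23 (interval -0.53 to 0.06, edgeR adjusted p = 0.513), and the lower end of the interval is a fold of 0.694. Gbp5, which promotes inflammasome assembly, lay at 27.96 and 27.3 in the vehicle pair and 24.1 and 24.3 in the BML-260 pair (-0.19, interval -0.49 to 0.11). Within each treatment the Gbp5 libraries were almost equal. Gbp4 lay at 51.7 and 52.3 in the vehicle pair and 48.3 and 41.2 in the BML-260 pair, and Gbp6 at 141 and 144 in the vehicle pair and 114 and 140 in the BML-260 pair. Both had decimal counts in all 4 libraries and share exons with neighbouring genes on the same strand, so their counts are uncertain. Gbp3 and Gbp7 overlapped between the groups, at -0.12 and 0.01.

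Among the IRG genes no member separated the groups. Irgm1 lay at 53.8 and 51.6 CPM in the vehicle pair and 62.6 and 52.7 in the BML-260 pair (0.13, interval -0.21 to 0.46). Irgm2 lay at 101.5 and 106 in the vehicle pair and 104 and 113 in the BML-260 pair, and Igtp at 64.9 and 82.5 in the vehicle pair and 57.1 and 71.2 in the BML-260 pair, with log2 fold changes of 0.06 and -0.20. The exons of Igtp and Irgm2 overlap in the annotation and both had decimal counts in every library, so reads can be split between them. In Igtp and in Iigp1, which loads onto vacuoles and breaks them (85.3 and 119 in the vehicle pair, 80.1 and 101 in the BML-260 pair), the B library was the higher one in each treatment, the opposite order to Ifit1 and Isg15.

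The antiviral genes and the GTPases differed in how far apart the 2 BML-260 libraries stood. All 22 antiviral genes were higher in BML-260 A than in BML-260 B, with a median ratio of 1.37, whereas 4 of the 10 GTPases were, with a median ratio of 0.961; over all tested genes 46.8% were higher in BML-260 A. More than 1.5-fold separated BML-260 A from B in 6 of the 36 members, a share near the 12.4% of tested genes. The reverse held for 0 members, against 7.26%. The 6 were Epsti1 (3.20), Irf8 (2.27), Oas3 (2.20), Mx1 (2.13), Oasl1 (1.89) and Ifit2 (1.70). Vehicle A was above vehicle B in 15 of the 22 antiviral genes, with a median ratio of 1.12, and in 4 of the 10 GTPases, with 0.983. These are ratios between single libraries, so they carry no test. Summed over the 22 antiviral genes, levels were 1151 and 1042 CPM in the vehicle pair and 1285 and 978 in the BML-260 pair, and the vehicle sums thus lay between those of the 2 BML-260 libraries. The 10 GTPases summed to 796 and 820 in the vehicle pair and 720 and 777 in the BML-260 pair.

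**Figure D3:**
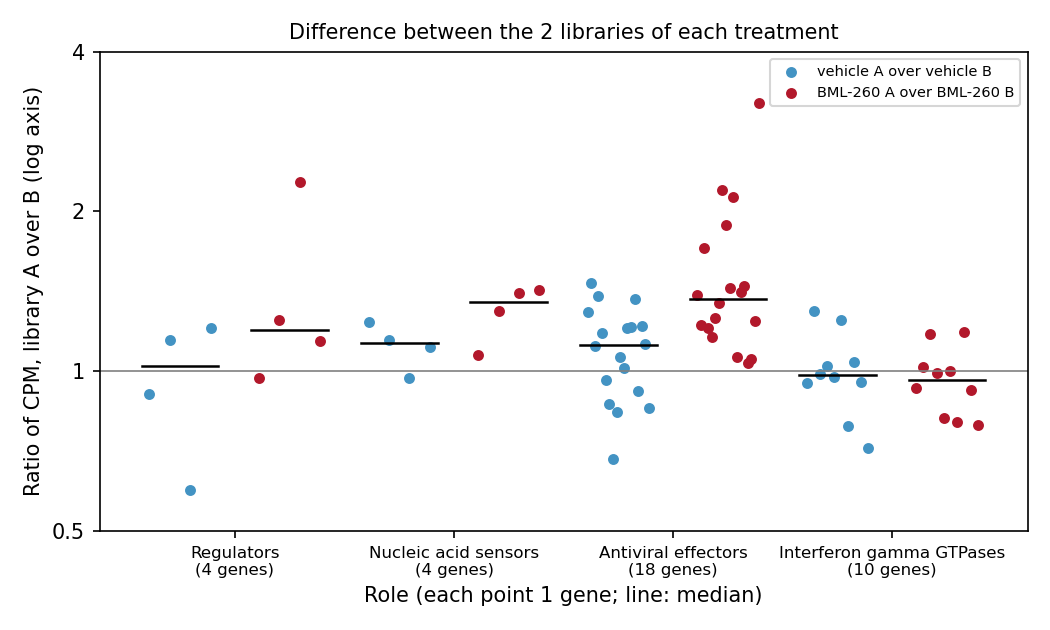
Ratio of CPM in library A over library B (log axis) for each gene, within vehicle (blue) and within BML-260 (red), by role; black lines are medians. In BML-260 all antiviral genes lie above 1 (median 1.37 over sensors and effectors together), and the GTPases lie around it (0.961).

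The fold changes of the antiviral genes accordingly depended on which BML-260 library entered. Without BML-260 A their median log2 fold change was -0.19, and 1 of the 36 members, Irgm2, was above zero; without BML-260 B the antiviral median was 0.23. At an unadjusted p under 0.05 the fit without BML-260 A counted 3 members as lower (Mx1, Gbp4 and Rsad2), where 2.67% of all genes tested in that fit were lower. The fit without BML-260 B counted 6 as higher (Epsti1, Ifit2, Zbp1, Oas3, Oasl1 and Irf8), where 11.6% of all genes were higher. After adjustment edgeR called 0 members in either, with smallest adjusted p of 0.516 and 0.1, where the lone library was assumed to vary like the other group.

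Markers of other cells also differed between these libraries. All 10 B cell markers were highest in BML-260 A, with a summed level of 212 CPM there against 3.64 in the other BML-260 library and 1.95 and 2.85 in the vehicle pair; 3 of them were at 0 in vehicle A. T and NK cell markers summed to 173 CPM in BML-260 A, 30.4 in the B library and 21.6 and 49.3 in the vehicle pair, with 13 of 15 highest in BML-260 A and none at 0. T cell genes made up most of that sum: Cd3e lay at 8.52 CPM in BML-260 A and at 0.712 to 1.64 elsewhere, whereas the NK cell genes Klrb1c (2.14 to 2.50) and Ncr1 (1.41 to 1.85) were close in all 4 libraries and Gzma was highest in BML-260 B (5.83). Macrophage markers summed to 2725 in BML-260 A, 1443 in the B library and 1877 and 2168 in the vehicle pair. Of the 12, 8 were highest in BML-260 A and none was at 0. The summed antiviral genes were also highest in BML-260 A and lowest in BML-260 B. Their vehicle libraries stood in the opposite order to those of the macrophage sum. Lyz2 was the largest part of that sum in every library (1019 CPM in BML-260 A). C1qa, C1qb, C1qc and Cd14 were highest in vehicle B, and Cd14 was lower in both BML-260 libraries than in both vehicle libraries. Dendritic cell markers summed to 93.7 in BML-260 A and to 39.7 to 52.1 in the other libraries, with H2-DMb2 (22.3 CPM), Ccr7 (16.0) and Itgax (13.3) among the largest values there. Elsewhere H2-DMb2 lay at 1.09 to 2.85 CPM and Ccr7 at 0.475 to 1.04, so H2-DMb2 and Ccr7 made up most of the excess. The markers did not move as 1 group: Clec9a and Zbtb46 were lower in both BML-260 libraries than in both vehicle libraries, and Xcr1 lay between 1.18 and 1.88 CPM in all 4. Endothelial markers summed to 1044 and 912 in the vehicle pair and 614 and 812 in the BML-260 pair. The groups did not overlap in 8 of 10, all lower with BML-260. Adipocyte markers, present at high levels in every library, did not overlap in 7 of 12, all lower with BML-260. Of all tested genes, 21.5% were lower without overlap. Plasmacytoid dendritic cell markers, counted without Bst2 and Irf8, summed to 89.3 and 89.6 in the vehicle pair and 149 and 145 in the BML-260 pair. Most of that difference was Cox6a2, also a muscle gene (0.712 and 17.98 CPM, then 51.2 and 62.0); without it, a choice made after its values were seen, the sums were 88.6 and 71.6 against 97.5 and 83.5, and the groups overlapped. Skeletal muscle markers summed to 459 and 12240 CPM in the vehicle pair and 34250 and 52890 in the BML-260 pair. The part of these cell markers in the values of the interferon-stimulated genes was not tested.

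The interferons themselves were barely seen. Of 20 genes for interferons and the cytokines that induce them or interferon gamma, 13 had 0 counts in every library, Ifnb1 and every alpha gene of the list among them; a count of 0 allows up to 3 counts, or 0.130 to 0.144 CPM per library. This limit covers counting error only. Ifng had 5 and 6 counts with vehicle and 3 and 4 in the BML-260 pair, too few to be tested. Il18 and Il15, which drive NK cells to make interferon gamma, had log2 fold changes of 0.22 and -0.16. Il12a, a subunit of interleukin-12, had 0 and 24 counts with vehicle and 52 and 62 in the BML-260 pair (log2 fold change 2.32, interval -0.57 to 5.22, edgeR adjusted p = 0.514), an order of libraries that the muscle markers share.

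The 2 chains of the type I interferon receptor differed little between treatments, while those of the interferon gamma receptor lay on opposite sides. Ifnar1 lay at 62.8 and 55.1 CPM in the vehicle pair and 62.5 and 57.9 in the BML-260 pair (log2 fold change 0.03, interval -0.29 to 0.35) and Ifnar2 had -0.04 (interval -0.32 to 0.25). Ifngr1, the chain that binds interferon gamma, lay at 191 and 178 in the vehicle pair and 119 and 139 in the BML-260 pair, lower in both BML-260 libraries. Its log2 fold change was -0.52 (SE 0.14, interval -0.88 to -0.16), with an unadjusted p of 0.0138 and an adjusted p of 0.36 in edgeR. Ifngr2, the signalling chain, lay at 27.6 and 25.6 in the vehicle pair and 46.0 and 39.3 in the BML-260 pair, higher in both. Its log2 fold change was 0.68 (SE 0.14, interval 0.33 to 1.03), with an unadjusted p of 0.00367 and an adjusted p of 0.292 in edgeR. DESeq2 called Ifngr2 (adjusted p = 0.0372), as did edgeR with no filter on low counts (adjusted p = 0.0341), and in the authors' deposited table its adjusted p is 0.0394; the main test did not. For Ifngr1 the DESeq2 adjusted p was 0.0549, and the authors' deposited table gives 0.0596.

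Among the kinases and transcription factors, Jak2, which serves the interferon gamma receptor, lay at 37.3 and 33.0 CPM in the vehicle pair and 52.4 and 46.6 in the BML-260 pair, higher in both (log2 fold change 0.49, interval 0.16 to 0.83, edgeR adjusted p = 0.359). Jak1, shared by both receptors, had 0.33 (interval -0.11 to 0.76) and Tyk2, which serves the type I receptor, 0.02. Stat2, which carries the type I signal, had -0.09 (interval -0.39 to 0.21). Jak1 was higher and Stat2, by a narrow margin, lower in both BML-260 libraries. The groups did not overlap in 44.3% of all tested genes. Irf3, which starts interferon beta transcription after viral sensing, was lower in both BML-260 libraries, at 57.0 and 59.9 in the vehicle pair and 46.7 and 48.9 in the BML-260 pair (-0.29, interval -0.57 to -0.007, edgeR adjusted p = 0.444). Of the 18 tested genes of this list 0 passed after adjustment. Before adjustment Ifngr2 and Jak2 were higher and Ifngr1 and Irf3 lower at an edgeR p under 0.05. Over all tested genes 7.45% were higher and 3.61% lower at that threshold. The muscle markers were higher in both BML-260 libraries in 15 of 15, beside 22.9% of all tested genes. The adipocyte markers were lower in both in 7 of 12, beside 21.5%. The part of these markers in the receptor and signalling values was not tested.

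**Figure D4:**
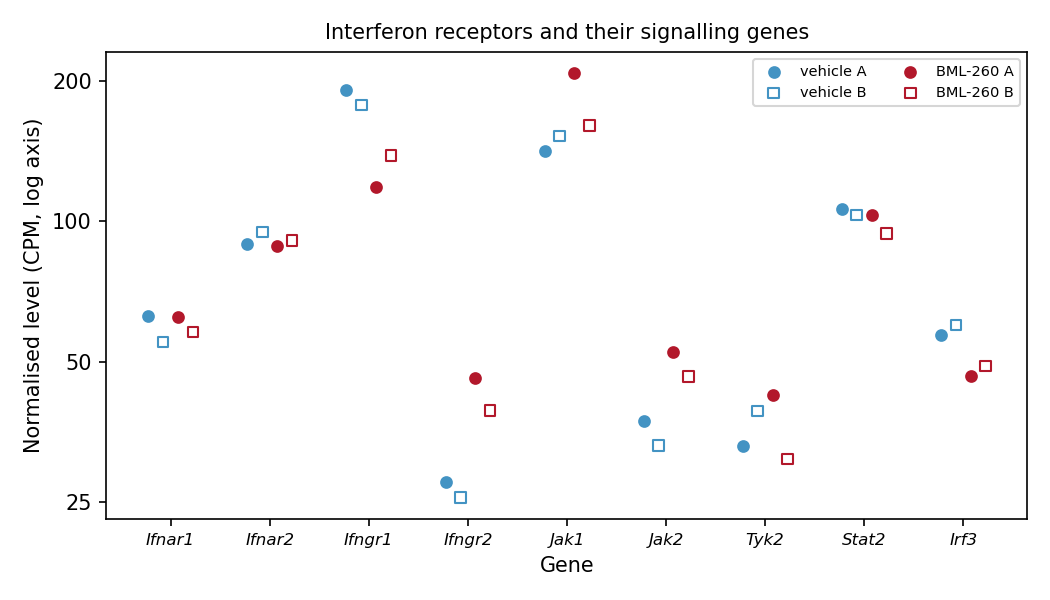
Normalised level (CPM, log axis) of interferon receptor, kinase and transcription factor genes in each library; filled circles are A and open squares B libraries, blue vehicle and red BML-260. Ifngr1, Irf3 and, narrowly, Stat2 lie lower and Ifngr2, Jak1 and Jak2 higher in both BML-260 libraries, while Ifnar1, Ifnar2 and Tyk2 overlap.

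Other sensors, adaptors and targets gave few differences. Of 17 genes for sensors and adaptors, 0 reached an unadjusted p under 0.05; Traf3, a ubiquitin ligase of the interferon pathway, Tlr9, a receptor for DNA, and Ikbke, a kinase that activates Irf3 and Irf7, had the smallest p, the first and last with log2 fold changes of 0.43 and 0.57. Tlr9 lay at 11.5 CPM in BML-260 A and between 3.13 and 3.89 elsewhere. Of 46 other targets of type I interferon, 1 was higher at p under 0.05 before adjustment and 0 lower, and their median log2 fold change was 0.05. The 1 was Ms4a4c, a membrane protein of lymphoid and myeloid cells, at 2.94 and 4.15 CPM in the vehicle pair, 21.6 in BML-260 A, but 5.24 in its B library. Slfn9 and Ifi35, the next by p, had 0.65 and -0.22.

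Of 17 tested other targets of interferon gamma, 1 was lower at p under 0.05 before adjustment and 0 higher, with a median of 0.06. The 1 was Cxcl9, a chemokine that draws T cells and depends closely on interferon gamma, at 49.7 and 69.8 CPM in the vehicle pair and 32.8 and 45.1 in the BML-260 pair. Both BML-260 values were below both vehicle values, with a log2 fold change of -0.62 (interval -1.21 to -0.03, edgeR adjusted p = 0.44); without vehicle B it was -0.35. Gbp11 and Tgtp2 followed by p, at 0.28 and -0.26. Over the 5 lists together 101 genes were tested, 0 passed after adjustment in edgeR, and 3 were higher with 3 lower before adjustment, beside 7.45% and 3.61% of all tested genes.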

How the data were processed

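The authors deposited 1 table of expected counts and FPKM per gene and library, with group means, log2 values and their own log2 fold change, p-value and adjusted p-value, per the file headers. Build GRCm38.p5 and the tools RSEM 1.2.31, HISAT2 2.1.0 and DESeq2 1.10.1 appear in the submitters' processing notes, without role or order. Whether strand was used is not given in the sources used here; overlapping genes therefore have uncertain counts.

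Expected counts were rounded. After filterByExpr left 15643 genes, edgeR 4.0.16 (R 4.3.3) quasi-likelihood tests with TMM factors compared the treatments in a model of treatment alone (two-sided), with 2 residual and 3.28 prior degrees of freedom. Levels are TMM-scaled CPM; comparisons between genes use the deposited FPKM. Intervals of fold changes are at 95% from the same fit. Alternatives were DESeq2 1.42.0, limma-voom (limma 3.58.1), other scaling and filters, leaving out each library, and the library letter as a term. Coordinates come from GENCODE vM21 (GRCm38). Members and lists were chosen with earlier results of these data known; named were all members, and in each pathway list a fixed set of receptor and signalling genes plus up to 6 genes under an unadjusted p of 0.05, or the 3 with the smallest p. Of the lists' genes, 3 symbols were not matched. A gene of the receptor and signalling list is counted there but not reported here by name.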

Additional observations from a re-analysis of the deposited data

How the results depend on the processing

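No member passed after adjustment under any of the 11 alternatives. Over all genes edgeR called 1, against 391 with DESeq2, 651 without a filter, 0 with the library letter as a replicate block and 0 to 309 leaving out 1 library (0 without vehicle A, 309 without vehicle B, 5 without BML-260 B). What same-letter libraries share beyond the letter is not stated (correlation of deviations over all tested genes -0.0401). With the block the members' median was -0.016. Members at an unadjusted p under 0.05 numbered 1 higher (Epsti1) without a filter, beside 7.72% of all genes, and 1 lower (Gbp2) with library totals, beside 5.71%. Leaving out a library gave 0 to 6 higher and 0 to 3 lower, beside 4.21% to 11.6% and 1.33% to 6.78% of all genes. The antiviral median ran from -0.19 to 0.23 leaving out a library. The GTPase median was -0.23 with library totals and ran from -0.207 to -0.053 leaving out a library. With library totals Gbp7 turned to -0.043 and Usp18 to -0.015. Leaving out 1 library turned the sign of 24 members and left that of 12. Leaving out BML-260 A and BML-260 B gave the lowest and the highest value of Ddx58 (-0.057 to 0.33), Dhx58 (-0.20 to 0.32), Epsti1 (-0.35 to 1.34), Ifit2 (-0.17 to 0.61), Irf8 (-0.27 to 0.93), Irgm1 (-0.015 to 0.24), Isg15 (-0.28 to 0.21), Mx1 (-0.66 to 0.44), Oas1a (-0.10 to 0.24), Oas2 (-0.14 to 0.30), Oas3 (-0.14 to 1.01), Oasl1 (-0.36 to 0.56), Oasl2 (-0.30 to 0.23), Parp14 (-0.12 to 0.21), Rsad2 (-0.48 to 0.03), Usp18 (-0.28 to 0.26) and Zbp1 (-0.051 to 0.45), and the reverse for Irgm2 (-0.004 to 0.10). Leaving out a vehicle library gave both ends for Gbp3 (-0.30 to 0.056), Gbp7 (-0.14 to 0.15), Ifih1 (-0.17 to 0.11), Ifit1 (-0.20 to 0.32), Ifit3 (-0.17 to 0.28) and Iigp1 (-0.42 to 0.084). With 2 libraries per treatment the cause of these turns was not tested.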
